A study of Mus musculus with 8 samples.

Results

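Eosinophils are granulocytes that are made in the bone marrow and settle in the intestinal wall. The 10 genes described here encode factors known to set up or steer this lineage: the GATA factors Gata1 and Gata2 and their partner Zfpm1, the C/EBP factors Cebpa, Cebpb and Cebpe, the Ets factor Spi1 (PU.1), the helix-loop-helix inhibitor Id2, the secretory factor Xbp1 and the pseudokinase Trib1. They were picked out by gene symbol, with earlier results of these data known, and all 10 were found among the 38392 genes of the expression table. RNA was sequenced from eosinophils sorted from wildtype female C57/BL6 mice, with 4 libraries from bone marrow and 4 from small intestine, and no group carried a treatment or an engineered allele. Ages of single animals were not given in the labels. Bone marrow eosinophils were gated as CD11b+ Ly6G- Ly6C- SiglecF+ cells with high side scatter, and small intestinal eosinophils as CD11b+ MHC-II- SiglecF+ cells with high side scatter. The intestine was stripped of epithelium, digested warm and enriched on anti-CD11b beads, whereas marrow was flushed and sorted without these steps, so tissue and handling cannot be told apart. Libraries are called by their column names (BM_1, BM_3, BM_4 and BM_5; SI_6, SI_7, SI_10 and SI_11), which gave the tissue but not the single sample.

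The libraries held 11508002 to 21289164 reads in genes. Marker genes differed widely between the tissues. Il5ra, which encodes the alpha chain of the IL-5 receptor, had 11 ± 5.31 normalised counts (reads divided by the library's size factor; mean ± SD, n = 4 throughout) in the bone marrow libraries, against 1107 ± 222 in small intestine. Of the other receptor genes of eosinophils, Siglecf (579.9 ± 66.0 normalised counts), Csf2rb (2557 ± 136) and Csf2ra (3299.9 ± 333) were well covered in bone marrow. Ccr3 was not, with 70.9 ± 25.7 in marrow against 16351 ± 2623 in small intestine. The lipoxygenase gene Alox15 likewise had 159 ± 134 against 19775 ± 2245. Granule protein genes went the other way, with 349.9 ± 40.2 normalised counts of Epx in marrow and 20.6 ± 9.06 in small intestine. A list of 12 neutrophil precursor genes, among them Mpo, took 3.85% to 4.58% of the reads in the bone marrow libraries and 0.00501% to 0.00682% in small intestine, and all 12 were lower in small intestine. None of the 12 was at 0 in all libraries of a tissue. Mpo had 149860 ± 19352 normalised counts in marrow, far above the Epx, Il5ra and Ccr3 values there. Neutrophil precursor transcripts, which the label does not name, were thus abundant in all 4 bone marrow libraries alike. The part of these transcripts in the results below was not tested, so the bone marrow values describe whole libraries rather than eosinophils alone. In bulk RNA, fewer cells of a type and less RNA per cell cannot be told apart.

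As background, eosinophils form from myeloid progenitors in which GATA1, PU.1 and C/EBP factors act together. GATA1 is required for the lineage, C/EBP alpha opens the granulocyte programme, and C/EBP epsilon carries it to the mature granule stage. FOG-1, the product of Zfpm1, binds GATA1 and holds back eosinophil fate, TRIB1 brings C/EBP alpha to the ubiquitin ligase COP1 for destruction, and XBP1 sustains secretory cells while they fill with granule protein.

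Upstream sequence is shown for the members whose GATA and C/EBP transcripts moved furthest, and for Xbp1, since factors of these families are known to regulate each other. RefSeq promoters on GRCm38.p6 were found for 7 members (Gata1, Gata2, Zfpm1, Cebpa, Cebpb, Id2 and Xbp1), with 8 start sites. The 250 bases before each start were searched on both strands. The words were AGATAA or TGATAA or AGATAG or TGATAG for GATA factors, TTGCNNAA or TTNNGCAA for C/EBP, GAGGAAG for PU.1, GACGTG for XBP1, TATAAA for the TATA box and CCAAT for the CCAAT box. Matches are in capitals, and each sequence runs 5′ to 3′ towards the start site.
Gata1, chrX:7967911-7968160, minus strand: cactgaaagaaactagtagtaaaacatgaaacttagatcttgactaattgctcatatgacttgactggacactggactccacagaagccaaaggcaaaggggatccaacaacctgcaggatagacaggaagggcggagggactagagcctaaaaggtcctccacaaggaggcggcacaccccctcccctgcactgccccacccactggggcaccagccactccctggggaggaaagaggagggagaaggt
Gata2, downstream start, chr6:88198414-88198663, plus strand: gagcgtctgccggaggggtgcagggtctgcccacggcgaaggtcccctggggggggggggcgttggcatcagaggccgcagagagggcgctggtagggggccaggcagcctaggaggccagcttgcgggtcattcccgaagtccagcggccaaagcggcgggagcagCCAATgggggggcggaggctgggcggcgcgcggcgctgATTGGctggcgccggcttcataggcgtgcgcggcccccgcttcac
Cebpa, chr7:35119043-35119292, plus strand: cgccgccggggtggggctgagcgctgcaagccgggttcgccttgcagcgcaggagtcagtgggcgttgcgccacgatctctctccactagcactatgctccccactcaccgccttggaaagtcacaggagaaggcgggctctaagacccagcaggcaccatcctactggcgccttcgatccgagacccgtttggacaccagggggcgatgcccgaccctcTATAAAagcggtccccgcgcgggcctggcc
Cebpb, chr2:167688665-167688914, plus strand: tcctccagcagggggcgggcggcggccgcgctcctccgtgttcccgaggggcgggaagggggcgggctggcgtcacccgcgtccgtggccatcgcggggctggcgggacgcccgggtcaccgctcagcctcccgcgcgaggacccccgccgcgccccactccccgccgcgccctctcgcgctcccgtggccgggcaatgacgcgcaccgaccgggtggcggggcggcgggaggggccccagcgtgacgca
Xbp1, chr11:5520391-5520640, plus strand: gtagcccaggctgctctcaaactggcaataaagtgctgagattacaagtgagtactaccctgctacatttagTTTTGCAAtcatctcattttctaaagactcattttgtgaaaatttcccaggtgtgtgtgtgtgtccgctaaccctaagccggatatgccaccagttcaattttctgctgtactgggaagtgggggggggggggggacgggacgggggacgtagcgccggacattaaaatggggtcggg

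No GATA word was found in any of the 8 windows, where 26.5% of 32851 windows of this length over all genes held one. The downstream start of Gata2 held a CCAAT box on each strand (33.8% of all windows held at least 1). Cebpa held a TATA box whose first base lay 30 bases before the start (12.4% of all windows). Xbp1 held the only C/EBP word, 178 to 171 bases before its RefSeq start (9.56% of all windows). This window ended at 5520640, ahead of the gene model start at 5520659, and the bases just after it matched no annotated Xbp1 transcript. Neither a PU.1 word (10.6% of all windows) nor an XBP1 word (5.20%) was found in the 8 windows. Id2 held 3 CCAAT boxes, and no searched word was found in the windows of Gata1, Zfpm1, Cebpb or the upstream start of Gata2. The Gata1 window ended at 7968160, inside its minus-strand gene model (7959260-7978071), so it precedes an internal start. The Id2 window likewise lay inside its gene model. Sequence outside the 8 windows was not searched, so a missing word here does not mean that the gene lacks one. These matches are letters only and describe no binding.

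All 10 factors differed between the tissues. By limma on the deposited log2 values with Benjamini-Hochberg adjustment over all genes (adjusted p under 0.05), 6 factors were higher in small intestine (Gata1, Gata2, Zfpm1, Cebpb, Spi1 and Trib1) and 4 were lower (Cebpa, Cebpe, Id2 and Xbp1). Over all genes, 22.0% were called higher and 12.9% lower. The libraries of the tissues did not overlap for any of the 10 factors, as for 34.3% of all genes. Among the 16215 genes averaging 10 reads or more, 5603 were called higher and 4630 lower. The absolute difference had a median of 2.65 over the 10 factors and 1.14 over those 16215 genes. The signed difference, small intestine minus bone marrow, had a median of 1.42 over the factors and 0.37 over all genes, those with few reads included. Over the 14170 genes with a mean deposited value of at least 4 its median was -0.0044. Scaling moved the balance of calls: 63.2% of the calls over all genes were higher with the authors' size factors, 45.8% with quantile normalisation and 29.5% with each library centred on its median, which took the median of all genes to -0.53. No factor changed direction under these scalings.

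**Figure D1:**
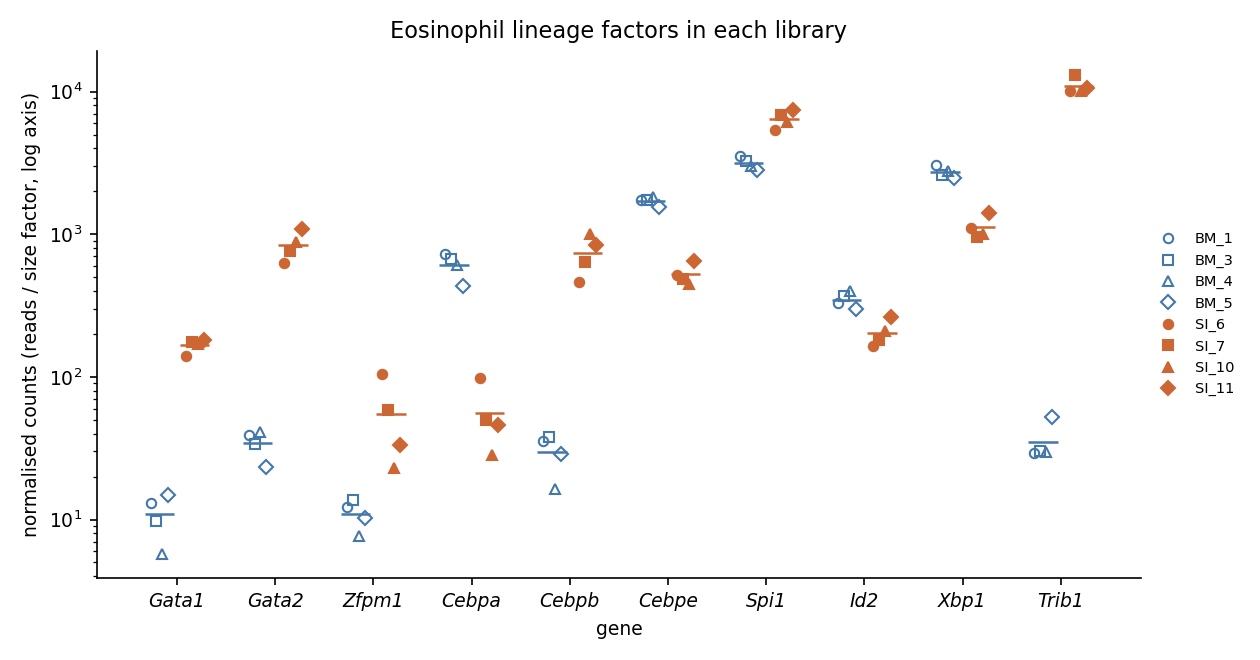
Normalised counts (reads divided by size factor, log axis) of the 10 lineage factors in each of the 8 libraries; open blue symbols are bone marrow, filled orange symbols small intestine, and short lines mark the tissue means (n = 4). The tissues do not overlap for any factor, and Trib1 shows the widest gap, from 29.1 to 52.1 in bone marrow to 10078 to 13148 in small intestine.

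The GATA factors were both higher in small intestine. Gata1, the zinc finger factor required for eosinophils (ENSMUSG00000031162, chrX:7959260-7978071, minus strand), had 13.0, 9.78, 5.74 and 14.9 normalised counts in BM_1, BM_3, BM_4 and BM_5. The small intestine libraries SI_6, SI_7, SI_10 and SI_11 held 141, 176, 169.6 and 181. Every small intestine library thus lay far above every bone marrow library, and the small intestine libraries lay close together. The means were 10.9 ± 4.01 and 167.0 ± 18.1, a ratio of 15.4, and the difference on the deposited scale was 3.61 ± 0.26 (SE; 95% CI 3.02 to 4.20; limma adjusted p = 1.70e-05). The bone marrow values rest on 6 to 17 reads, so they carry a wide counting error.

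Gata2, the GATA factor of stem and progenitor cells and of mast cells (ENSMUSG00000015053, chr6:88193891-88207032, plus strand), showed the same direction. It had 39.1, 33.9, 41.1 and 23.2 normalised counts in the bone marrow libraries in the order above. In small intestine it had 625.5, 759, 888 and 1098. The lowest small intestine library held many times the highest bone marrow value. The means were 34.3 ± 8.0 and 842 ± 201, a ratio of 24.5, with a difference of 4.47 ± 0.26 (95% CI 3.88 to 5.06; limma adjusted p = 5.89e-06). Mast cells and basophils also use Gata2. Their 8 marker genes took 0.0380% to 0.0503% of the reads in marrow and 0.0501% to 0.106% in small intestine, led per length by Hdc, the histamine-forming enzyme. Of the 8, 4 fell (Cpa3, Mcpt8, Ms4a2 and Kit), and the mast cell protease gene Mcpt4 had at most 1 read in any library of either tissue. Hdc rose from 2441 ± 298 to 11510 ± 3165 normalised counts. It gave most of the list's reads in small intestine, so the summed share there is mainly that of Hdc. Megakaryocytes use Gata1, Gata2, Zfpm1 and Gfi1b too, and their 5 marker genes, led per length by Ppbp, took 0.00115% to 0.00230% of the reads in bone marrow libraries and 0.00496% to 0.00712% in small intestine. Of the 5, Itga2b and Ppbp rose, Gp9 fell, Pf4 and Gp1ba did not pass, and none was at 0 in a whole tissue. The part of mast cell, basophil or megakaryocyte RNA in the GATA values was not tested.

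Zfpm1, which encodes the GATA cofactor FOG-1 (ENSMUSG00000049577, chr8:122282141-122337251, plus strand), rose less and with more spread. BM_1, BM_3, BM_4 and BM_5 held 12.3, 13.7, 7.66 and 10.2 normalised counts. SI_6 held 105, SI_7 58.2, SI_10 23.0 and SI_11 33.2. The bone marrow values rest on 8 to 21 reads, the small intestine libraries spanned a wide range, and SI_10 lay nearest to bone marrow. The means were 11 ± 2.62 and 54.8 ± 36.5, a ratio of 5.0, with a difference of 1.82 ± 0.42 (95% CI 0.85 to 2.79; limma adjusted p = 0.0097). Without SI_6 the difference was 1.46 (adjusted p = 0.0132). The call was lost with median centring (0.92, adjusted p = 0.115) and quantile normalisation (1.06, adjusted p = 0.134).

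The C/EBP factors moved apart. Cebpa, the factor that opens the granulocyte programme (ENSMUSG00000034957, chr7:35119293-35121928, plus strand), fell in small intestine. The bone marrow libraries held 725, 673, 608 and 433 normalised counts. In small intestine the values were 98.2, 49.9, 28.4 and 46.2. BM_5 was the lowest in marrow and still lay well above SI_6, the highest in small intestine. The means were 609.7 ± 127 and 55.7 ± 29.9, so the level was 10.9-fold lower, with a difference of -3.47 ± 0.36 (95% CI -4.29 to -2.65; limma adjusted p = 0.000131). An antisense gene, Gm45091, shares 51 exon bases with Cebpa and was not analysed here.

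Cebpb, the C/EBP factor of macrophages and of inflammatory responses (ENSMUSG00000056501, chr2:167688915-167690418, plus strand, 1 exon), rose. It had 35.2, 37.8, 16.3 and 28.8 normalised counts in the bone marrow libraries. SI_6, SI_7, SI_10 and SI_11 held 461, 639, 1003 and 846. SI_6, the library with the most Cebpa in small intestine, had the least Cebpb, and SI_10 the reverse. The means were 29.5 ± 9.62 and 737 ± 237, a ratio of 25, with a difference of 4.47 ± 0.33 (95% CI 3.72 to 5.23; limma adjusted p = 2.07e-05). Cebpb shares 312 exon bases with Tmem189 on the other strand, and the strand setting of the counting is not given in the sources used here, so reads of the pair could be split. Tmem189 rose from 153 ± 26.3 to 526 ± 84.3 normalised counts, by 1.76 ± 0.21 on the log2 scale (limma adjusted p = 0.000316).

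Cebpe, the factor of late granulocyte maturation and granule genes (ENSMUSG00000052435, chr14:54710360-54712174, minus strand), fell by less than Cebpa. BM_1, BM_3, BM_4 and BM_5 held 1729, 1743, 1825 and 1558 normalised counts. The small intestine libraries held 521, 483, 449 and 653. Bone marrow libraries were close to each other and all far above small intestine. The means were 1714 ± 112 and 526 ± 89.6, so the level was 3.26-fold lower, with a difference of -1.71 ± 0.19 (95% CI -2.15 to -1.27; limma adjusted p = 0.000202). Neutrophil precursors also use Cebpa and Cebpe, and their marker genes were higher in the same bone marrow libraries, as given above.

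Trib1, the pseudokinase that directs C/EBP alpha to degradation (ENSMUSG00000032501, chr15:59648350-59657099, plus strand), showed the largest difference of the 10. The bone marrow libraries held 29.1, 30.0, 29.7 and 52.1 normalised counts, from 31 to 56 reads. In small intestine the values were 10078, 13148, 10108 and 10685. BM_5 stood above the other bone marrow libraries, and the small intestine libraries were uniform by comparison with the gap. The means were 35.2 ± 11.2 and 11005 ± 1456, a ratio of 313, with a difference of 8.17 ± 0.24 (95% CI 7.63 to 8.72; limma adjusted p = 2.61e-07).

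Spi1, which encodes the Ets factor PU.1 (ENSMUSG00000002111, chr2:91082390-91115756, plus strand), was abundant in both tissues. BM_1, BM_3, BM_4 and BM_5 held 3567, 3242, 3005 and 2812 normalised counts. SI_6, SI_7, SI_10 and SI_11 held 5365, 6817, 6103 and 7492. All small intestine libraries were above all bone marrow libraries, by a margin much narrower than for the GATA factors. The means were 3157 ± 325 and 6444 ± 916, a ratio of 2.04, with a difference of 1.02 ± 0.19 (95% CI 0.58 to 1.46; limma adjusted p = 0.00325). With each library centred on its median the difference was 0.12 and the call was lost (limma adjusted p = 0.853). The call was kept with quantile normalisation (0.50, adjusted p = 0.0224). It was also kept with centring on genes averaging 10 reads or more (0.96, adjusted p = 0.0114). The size of the rise of Spi1 thus depended on the scaling. Macrophages and dendritic cells also use PU.1, and their 8 marker genes, led per length by Adgre1, took 0.00698% to 0.00799% of the reads in marrow and 0.194% to 0.231% in small intestine. All 8 were higher in small intestine and none was at 0 in a whole tissue. Adgre1 and Itgax, which eosinophils are known to express as well, gave 68.6% to 89.4% of the list's reads in small intestine and 16.0% to 21.5% in marrow, so the summed share is not a share of macrophage RNA. The other 6 genes, a split made after the values were seen, took 0.00548% to 0.00662% of the reads in marrow, and 0.0724% in SI_6, 0.0506% in SI_7, 0.0277% in SI_11 and 0.0206% in SI_10. Cebpb ran in the opposite order over the small intestine libraries, and Spi1 in neither order. The part of macrophage or dendritic cell RNA in the Spi1 and Cebpb values was not tested.

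Id2, an inhibitor of E protein binding to DNA that takes part in granulocyte development (ENSMUSG00000020644, chr12:25093799-25097140, minus strand), had the smallest difference. The bone marrow libraries held 327, 367, 400.0 and 300.3 normalised counts. The small intestine libraries held 165, 180.3, 211 and 262. SI_11 and BM_5 were the nearest pair across the tissues. The means were 349 ± 43.9 and 205 ± 42.8, so the level was 1.70-fold lower, with a difference of -0.77 ± 0.21 (95% CI -1.26 to -0.28; limma adjusted p = 0.0224). The call was lost without BM_3 (-0.74, adjusted p = 0.0502) and without BM_4 (-0.70, adjusted p = 0.0621).

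Xbp1, the factor of the unfolded protein response that eosinophil precursors need (ENSMUSG00000020484, chr11:5520659-5525893, plus strand), fell. BM_1, BM_3, BM_4 and BM_5 held 3042, 2602, 2796 and 2492 normalised counts. In small intestine the values were 1100.3, 961, 1005 and 1415. SI_11 was the highest small intestine library and stayed clearly below BM_5. The means were 2733 ± 241 and 1120.5 ± 205, so the level was 2.44-fold lower, with a difference of -1.30 ± 0.20 (95% CI -1.75 to -0.84; limma adjusted p = 0.00109). Plasma cells use Xbp1 as well, and their 5 marker genes, led per length by Igkc, took 0.000479% to 0.00153% of the reads in marrow and 0.0143% to 0.116% in small intestine. Of the 5, 3 rose and none fell, and none was at 0 in a whole tissue. The neutrophil precursor genes given above were higher in the bone marrow libraries, as Xbp1 was. The part of plasma cell or neutrophil precursor RNA in the Xbp1 values was not tested.

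**Figure D2:**
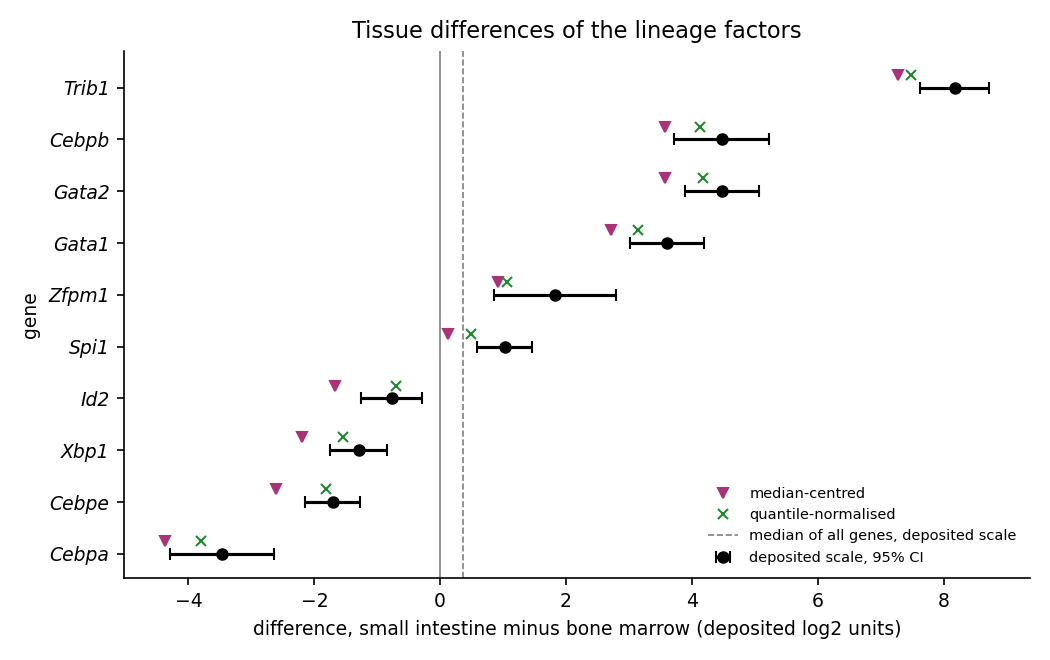
Difference of each lineage factor, small intestine minus bone marrow, in deposited log2 units; black points are the values with the authors' size factors and bars their 95% confidence intervals (limma, n = 4 per tissue), triangles the values after median centring and crosses after quantile normalisation. The dashed line marks the median of all genes (0.37); 6 factors lie above 0 and 4 below under each scaling, and Spi1 comes closest to 0 (0.12) after median centring.

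Ratios of reads within a library do not depend on the scaling. Reads of Cebpa to Cebpb had a mean log2 ratio of 4.41 ± 0.57 in marrow and -3.81 ± 1.22 in small intestine. On the linear scale there were 15 to 37.4 Cebpa reads per Cebpb read in marrow and 0.0284 to 0.213 in small intestine. The gene of this pair with more reads was thus a different one in each tissue. Trib1 to Cebpa differed most, with a log2 ratio of -4.13 ± 0.73 in marrow and 7.76 ± 0.77 in the intestine. Gata1 to Spi1 was -8.27 ± 0.61 in marrow and -5.27 ± 0.08 in the intestine, and Cebpa to Cebpe was -1.52 ± 0.26 and -3.37 ± 0.71. In these 4 pairs the tissues did not overlap. In the other pairs they did: Gata1 to Gata2 was -1.72 ± 0.90 in marrow and -2.31 ± 0.23 in small intestine, and Gata1 to Zfpm1 was -0.07 ± 0.48 and 1.84 ± 1.08. The tissues thus overlapped in the ratio of Gata1 to Gata2, although both genes were higher in small intestine. The ratios compare reads, not molecules, since the genes differ in length.

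**Figure D3:**
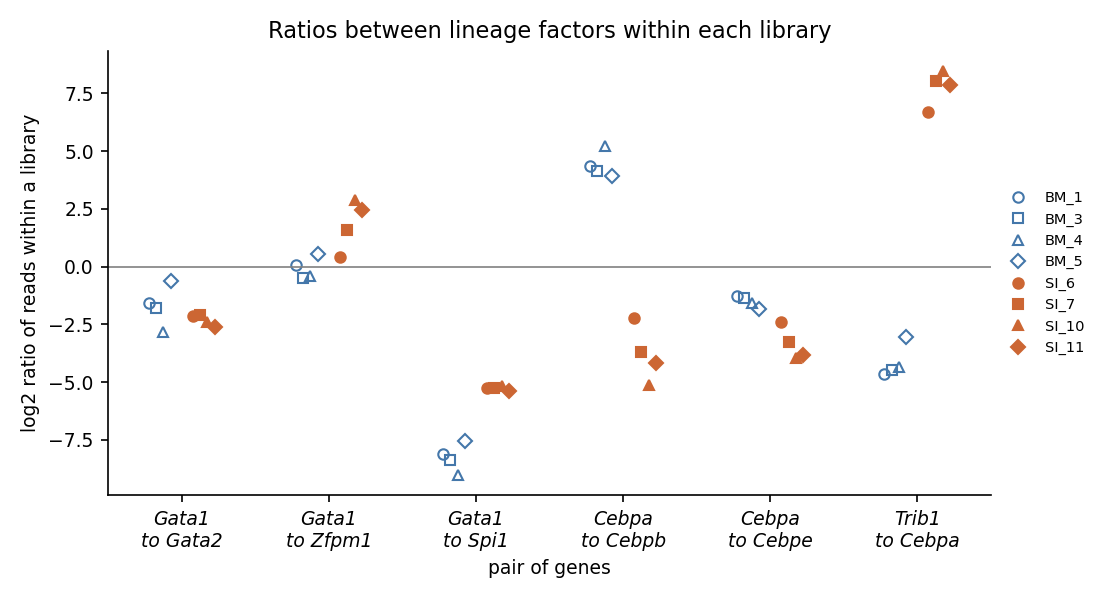
Log2 ratio of the reads of 6 pairs of lineage factors within each library; open blue symbols are bone marrow, filled orange symbols small intestine. Trib1 to Cebpa and Cebpa to Cebpb cross 0 between the tissues, and Gata1 to Gata2 and Gata1 to Zfpm1 overlap.

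Levels of different genes were compared per length, as reads per kilobase of annotated exon, scaled to the reads in genes of each library (RPKM). In bone marrow Cebpe had the highest level (103.7 ± 7.34), followed by Spi1 (87.7 ± 5.36), Xbp1 (63.1 ± 4.82), Cebpa (17.3 ± 2.97), Id2 (10.7 ± 1.47) and Cebpb (1.46 ± 0.43). Each of these lay apart from the next in all 4 libraries. Gata2 (0.477 ± 0.108), Trib1 (0.427 ± 0.154), Gata1 (0.334 ± 0.127) and Zfpm1 (0.233 ± 0.0470) came last and each overlapped with its neighbour. With the length of the longest transcript, Spi1 (116) passed Cebpe in bone marrow.

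In small intestine the order of levels changed. Spi1 (149 ± 15.1) and Trib1 (110.3 ± 14.6) were highest and overlapped, and Trib1 lay apart from Cebpb (30.7 ± 10.2). Cebpb, Cebpe (26.4 ± 3.11) and Xbp1 (21.5 ± 2.87) formed an overlapping middle group. Gata2 (9.72 ± 1.96) lay apart from Xbp1 above and from Id2 (5.23 ± 0.89) below, and Id2 overlapped with Gata1 (4.28 ± 0.39). Gata1 lay apart from Cebpa (1.33 ± 0.74), which overlapped with Zfpm1 (0.987 ± 0.679). Trib1 moved from the eighth place to the second, and Cebpa from the fourth to the ninth.

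The small intestine libraries also differed among themselves. Reads in 6 epithelial marker genes, led per length by Krt8, made up 0.0809% of the reads in SI_6, 0.0327% in SI_7, 0.0144% in SI_11 and 0.0133% in SI_10, against 0.000418% to 0.000652% in bone marrow. All 6 were higher in small intestine and none was at 0 in a whole tissue. Zfpm1 and Cebpa followed this order from SI_6 down to SI_10, and Cebpb ran in the opposite order. The plasma cell genes followed the epithelial order too, as did the 6 macrophage and dendritic cell genes other than Adgre1 and Itgax. Gata1 ran in neither order, with its lowest value in SI_6, and Gata2, Cebpe, Spi1, Id2, Xbp1 and Trib1 ran in neither order as well. The orders were compared after the values were seen, and with 4 libraries such a match can arise by chance. The part of epithelial, plasma cell, macrophage or dendritic cell RNA in the Zfpm1, Cebpa and Cebpb values was not tested. Without SI_6 the differences were 1.46 for Zfpm1, -3.77 for Cebpa and 4.68 for Cebpb.

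**Figure D4:**
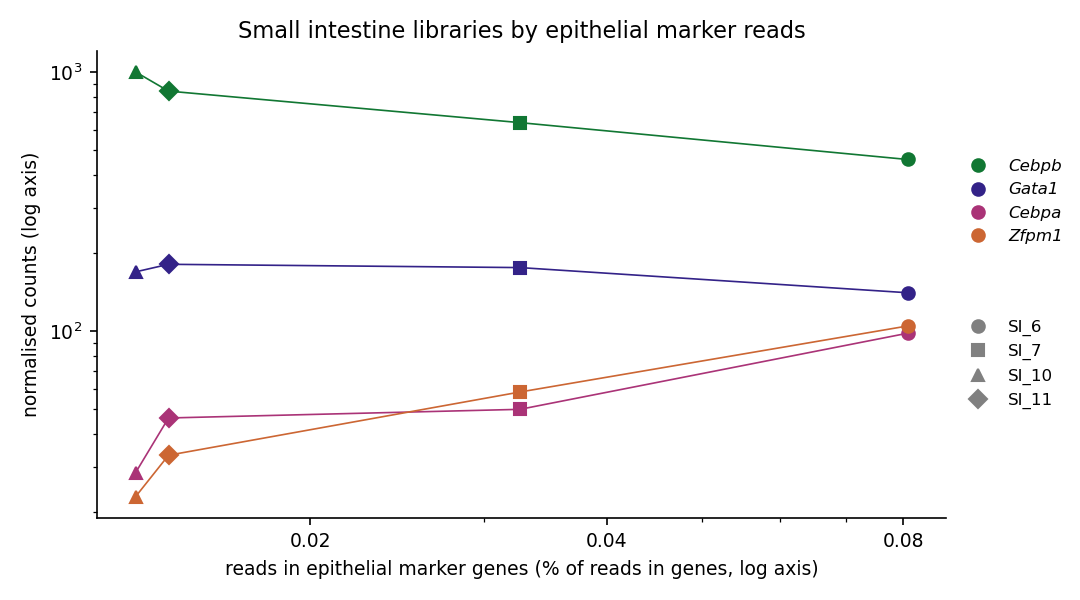
Normalised counts of Cebpb, Gata1, Cebpa and Zfpm1 (log axis) against the share of reads in 6 epithelial marker genes (percent of reads in genes, log axis) in the 4 small intestine libraries; each symbol is 1 library and lines join the libraries of a gene. Zfpm1 and Cebpa are highest in SI_6, the library with the largest epithelial share (0.0809%), and Cebpb is highest in SI_10, the one with the smallest (0.0133%).

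Further genes chosen to go with these factors were counted in 8 lists, each beside the 22.0% higher and 12.9% lower of all genes. Of 10 GATA partners and relatives, 2 rose, 4 fell and 4 did not pass the test, with a median difference of -0.29. Gfi1b, a repressor that binds beside GATA1, rose from 6.46 ± 4.51 to 691 ± 128 normalised counts (6.27 ± 0.38, limma adjusted p = 7.33e-06). Tal1, the helix-loop-helix partner of GATA factors in erythroid cells and progenitors, fell from 151 ± 13.5 to 10.3 ± 4.60 (-3.54 ± 0.27, adjusted p = 2.44e-05). The bone marrow libraries also held more reads of 8 erythroid genes, led per length by Hbb-bs (0.00725% to 0.00984% against 0.000269% to 0.000827%; 7 of the 8 fell, none at 0 in a whole tissue). Chd4, the remodelling enzyme that FOG-1 recruits, had the highest level per length and fell from 5507 ± 263 to 3807 ± 277 (-0.53 ± 0.17, adjusted p = 0.0378). With median centring 1 of the 10 rose and 5 fell.

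Of the 4 other genes listed beside the C/EBP factors, 2 rose (Cebpz and Ddit3), 1 fell (Cebpd) and Cebpg did not pass, with a median of 0.24. Cebpd, a C/EBP factor of late neutrophil maturation, fell from 382 ± 48.3 to 32.3 ± 6.68 normalised counts (-3.43 ± 0.21, limma adjusted p = 8.87e-06). Cebpz had both the largest rise (1.41 ± 0.19, adjusted p = 0.000548) and the highest level per length of the list. Under median centring 2 of the 4 fell and none rose. Of 10 other Ets factors, 2 rose, 4 fell and 4 did not pass, with a median of -0.33. Ets2 rose from 431 ± 38.3 to 16439.5 ± 3269 normalised counts (5.22 ± 0.21, adjusted p = 1.16e-06) and had the highest level per length, while Erg, an Ets factor of stem cells, fell from 1420.5 ± 109 to 62.7 ± 12.6 (-4.44 ± 0.21, adjusted p = 2.24e-06). After median centring 1 of the 10 Ets factors was higher and 5 were lower, and after quantile normalisation 1 was higher and 7 were lower. The Ets relatives of Spi1 thus included larger differences than Spi1 itself, in both directions.

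Of 6 other ID and E protein genes, 2 rose (Id3 and Id4), Tcf3 fell and 3 did not pass, with a median of -0.13. Id3, an inhibitor of the same kind as Id2, had no read in any bone marrow library and 171, 69.3, 17.5 and 33.2 normalised counts in SI_6, SI_7, SI_10 and SI_11 (limma adjusted p = 0.000277), the order of the epithelial share. Id1, with the highest level per length of this list, had 162 ± 16.7 in marrow and 72.8 ± 67.0 in small intestine and missed the threshold (-1.47 ± 0.50, adjusted p = 0.0508). SI_6 held 171 counts of Id1, within the bone marrow range of 142 to 182, and the other small intestine libraries 28.4 to 58.2. Without SI_6, 5 of these 6 genes were called, 2 higher and 3 lower, and after median centring 1 was higher and 3 were lower. Of 6 genes of the Tribbles family and of ubiquitin ligases, 3 rose (Trib3, Cop1 and Dcaf1), Ddb1 fell and 2 did not pass, with a median of 0.47. The balance of this list depended on the scaling, with 1 higher and 3 lower after median centring and 3 in each direction after quantile normalisation. Cop1, the ligase to which TRIB1 brings C/EBP alpha and a gene named here after its value was seen, rose from 2324 ± 267 to 6968 ± 1233 normalised counts (1.57 ± 0.21, adjusted p = 0.000568). Trib3 had the largest rise (2.39 ± 0.51, adjusted p = 0.00637) from at most 5 reads per bone marrow library. Ddb1, a ubiquitin ligase adaptor, had the highest level per length and fell from 2971 ± 150.1 to 969 ± 144 (-1.62 ± 0.19, adjusted p = 0.000226).

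Genes of the XBP1 branch fell together with Xbp1. Of 20 genes, 14 fell, none rose and 6 did not pass, with a median of -1.06. The count was 15 lower and 0 higher under both median centring and quantile normalisation. Sdf2l1, a chaperone cofactor of the endoplasmic reticulum, fell most, from 1231 ± 124 to 85.2 ± 14.0 normalised counts (-3.80 ± 0.20, limma adjusted p = 3.34e-06). Hspa5, the main chaperone of the compartment, had the highest level per length, with 15356 ± 538 normalised counts in marrow and 11619 ± 1058 in small intestine, and did not pass the test (-0.41 ± 0.17, adjusted p = 0.103). The largest positive value was that of Srp54a (1.14 ± 0.41, adjusted p = 0.0624), which had 0 to 5 reads per library. Ern1, the enzyme that splices Xbp1 RNA and likewise named after its value was seen, fell from 1549 ± 112 to 672 ± 32.3 (-1.20 ± 0.17, adjusted p = 0.000687). Spliced and unspliced Xbp1 RNA are not separated in gene counts.

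Genes of the other arms of the unfolded protein response moved in both directions. Of 7 genes, 3 rose (Atf4, Atf3 and Ppp1r15a), 2 fell (Chac1 and Asns) and 2 did not pass, with a median of -0.24. Atf3, a stress-induced repressor, rose from 2.13 ± 1.15 to 1951 ± 210.3 normalised counts (8.57 ± 0.22, limma adjusted p = 1.81e-07), the former from 2 to 4 reads per library. Atf4, with the highest level per length, rose from 1330.2 ± 38.8 to 3469 ± 368 (1.37 ± 0.17, adjusted p = 0.000394). After median centring 2 of the 7 were higher and 4 lower. Asns, the asparagine synthetase, fell from 353 ± 15.6 to 85.8 ± 52.2 (-2.15 ± 0.35, adjusted p = 0.00153).

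Of 12 eosinophil genes, many of them known targets of the lineage factors, 6 rose, 5 fell and Ear6 did not pass, with a median of -0.17 (5 higher and 6 lower after median centring). The receptors and the lipoxygenase rose (Il5ra, Ccr3, Siglecf, Alox15, Csf2rb and Csf2ra), and the granule proteins and ribonucleases fell (Epx, Prg2, Prg3, Ear1 and Ear2). Ccr3, the eotaxin receptor, rose from 70.9 ± 25.7 to 16351 ± 2623 normalised counts (7.83 ± 0.28, limma adjusted p = 7.36e-07). Alox15 had the highest level per length and rose from 159 ± 134 to 19775 ± 2245, with BM_5 (357) above the other bone marrow libraries (70.8 to 121). Ear1, a ribonuclease whose near-identical copies could share reads, fell from 230.0 ± 169.5 to 9.85 ± 10.7 (-4.28 ± 0.66, adjusted p = 0.00111). SiglecF was part of the sort gate in both tissues, so the Siglecf value describes gated cells.

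**Figure D5:**
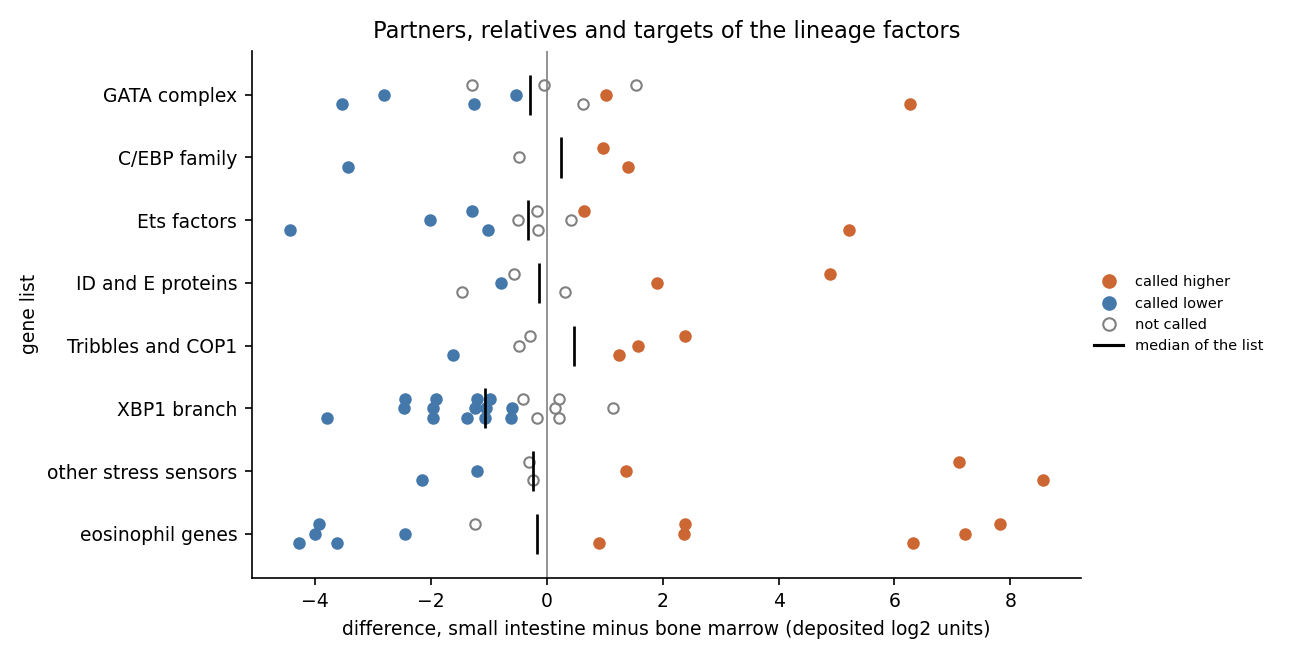
Difference of each gene of the 8 lists, small intestine minus bone marrow, in deposited log2 units; filled orange points were called higher, filled blue points lower and open points not called (limma adjusted p under 0.05, n = 4 per tissue), and black bars mark list medians. The XBP1 branch lies mostly below 0 (14 of 20 called lower, none higher), whereas the eosinophil genes split into 6 higher and 5 lower.

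The profiles most like that of Trib1 and that of Cebpa, the members with the largest rise and the largest fall, were found among 9424 genes with a mean of at least 100 normalised counts, by the root mean square distance over the 8 libraries after each gene's mean was taken off. For Trib1 these were Slc7a11, a cystine transporter (distance 0.13 log2 units), the unannotated C430019N01Rik (0.19) and Il1rn, the IL-1 receptor antagonist (0.24). For Cebpa they were Selenoh (0.17), the replication licensing factor Cdt1 (0.18) and Ass1, the argininosuccinate synthetase (0.19). The Slc7a11 mean was 80.4 normalised counts in marrow and 25555 in small intestine, and that of Cdt1 was 785 and 60.7. The distance largely follows the size of the tissue difference, as the 8 libraries fall into 2 tissues.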

How the data were processed

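The authors sorted eosinophils, extracted RNA at once, amplified cDNA with the NuGEN Ovation kit and sequenced single-end reads on an Illumina HiSeq. The authors counted reads per gene on GRCm38 (Ensembl 86) with nf-core/rnaseq and transformed the counts by the variance stabilisation of DESeq2 in R 4.0.3. The deposited values are therefore on a log2 scale that compresses genes with few reads. For the aligner, the strand setting and multiply mapped reads, the method was not given in the sources used here.

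Whole reads and size factors (0.721 to 1.53) were recovered by inverting the transformation from its lowest value. In every library 100% of genes came out whole within 0.05 reads, with a largest deviation of 0.00709. No gene was left out of the totals, so any reads of ribosomal RNA genes are included, and their share was not counted. Columns were mapped to tissues only. Every replicate pair differed by more than counting noise. The study used 4 mice per tissue, and p-values measure the spread between these libraries.

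The authors' own test was DESeq2 on counts. Because the unit is log2, limma 3.58.1 in R 4.3.3 was fitted to all 38392 genes and 8 libraries with tissue as the single term, a constant prior, no filter, 2-sided tests and Benjamini-Hochberg adjustment (threshold 0.05). It was also run on simulated reads. These had the same spread in both tissues and no shift shared by all genes, so the dependence on scaling was not covered. Alternatives were limma-trend, voom on the recovered reads, median centring, quantile normalisation, a mean deposited value of at least 4, and each library left out. Centring on genes averaging 10 reads or more was added after the data were seen. All 38392 identifiers matched GENCODE M21 (38000 with the same symbol), which gave coordinates and exon lengths. Other steps used Python 3.11.15, numpy 2.4.6, pandas 2.3.3 and matplotlib 3.10.9.

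The members and lists were chosen with earlier results of these data known. Named genes were all members, each list's largest rise, largest fall and highest level per length, the leading marker of each cell type list and the 3 nearest profiles of the extreme members; Cop1, Ern1, Il5ra, Siglecf, Csf2ra, Csf2rb, Epx, Mpo and Itgax and the genes counted by name were named beside this rule after their values were seen.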

Additional observations from a re-analysis of the deposited data

Results flagged for a closer look

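The deposited log2 value of Trib1 in BM_5 (5.80) stood above the other bone marrow libraries, with a gap to the nearest of 0.9498 of the group's range, which exceeds Dixon's critical value for 4 samples. The share of reads in T and innate lymphoid cell genes was also set apart in BM_5 (0.000894%), with a gap of 0.9304 of the range. Of 50 groups of 4 libraries examined, these 2 passed the limit, and chance sets apart about 1 in 20, or 2.5 of them. Without any one library the Trib1 difference stayed between 8.09 and 8.36.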

How the results depend on the processing

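Over the 10 factors and 14 alternatives each, 135 of 140 differences kept their direction and side of the threshold, 5 fell short of it and 0 reversed. The 5 were Zfpm1 with median centring (0.92) and quantile normalisation (1.06), Spi1 with median centring (0.12), and Id2 without BM_3 (-0.74) and without BM_4 (-0.70). Median centring by construction moves every gene of a library by the same amount. The median of the factors was 0.52 under median centring, 0.78 under quantile normalisation and 1.28 to 1.59 with a library left out. The count of factors called higher was 4 to 6 and lower 3 to 4, and both stood at 6 and 4 without SI_6 and without BM_5. The count of ID and E protein genes called was 5 with centring on genes of at least 10 reads, 6 with voom, 6 with limma-trend and 3 to 5 with a library left out (5 without SI_6); the cause was not tested. Over all genes the median was -0.53 after median centring, -0.03 after quantile normalisation and 0.89 by voom. None of 48 ratios without a library moved by over 1 SD, and 11 of 20 levels per length moved by over 1 SD with the longest transcript. No paired analysis was possible because the sample labels of the tissues share no replicate number and the columns carry none. Depth limits the bone marrow values of Gata1 and Zfpm1 most (at most 21 reads per library), and those of Gata2, Cebpb and Trib1 (17 to 58 reads).

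Calls over all genes numbered 8465 higher and 4937 lower, 4285 and 10216 after median centring, 5954 and 7032 after quantile normalisation, and 5331 and 5249 among the 14170 genes with a mean deposited value of at least 4.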

Other observations

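Cell type lists not yet described moved as follows. Progenitor genes, led per length by Myb, took 0.0690% to 0.0796% of the reads in marrow and 0.00765% to 0.0143% in small intestine, with Cd34 higher and Kit and Myb lower among 5 genes. T and innate lymphoid cell genes, led by Cd3d, took 0.000395% to 0.000894% and 0.000386% to 0.000934%, ranges that overlap, with Cd3e higher and Il7r lower among 5 genes. The neutrophil precursor list was led by S100a9 (96527 ± 14585 normalised counts in marrow and 276 ± 73.9 in small intestine).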
